A study of Sus scrofa with 12 samples.

Results

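Interferon response genes are genes that cells switch on after an interferon binds its receptor. A set of 41 of them was followed here in pig back fat, chosen by gene symbol. The pig Ensembl gene IDs of 38 mapped to a member symbol, out of 24358 genes in the table, and DDX58 was found under its current symbol RIGI. IFIT3, XAF1 and OAS1 had no matching row and were not analysed here. All 38 passed the filter on low counts, which left 15425 genes tested. By their main inducer as known from human and mouse cells, 26 were called type I-like, 6 shared (IRF9, STAT2, PARP9, DTX3L, PARP14 and TRIM21) and 6 gamma-like (IRF1, GBP1, GBP2, PSMB8, PSMB9 and TAP1).

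Type I interferons, which many cell types release when they sense viral nucleic acid, act through the receptor chains IFNAR1 and IFNAR2 and a transcription factor complex that holds STAT2 and IRF9. Interferon gamma, the product of IFNG, comes mainly from T cells and natural killer (NK) cells and acts through IFNGR1 and IFNGR2 and then IRF1. The first route is known for antiviral effectors and the second for antigen presentation, and many genes answer to both. In adipose tissue, adipocytes, stromal cells and resident immune cells can all respond.

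RNA was taken from subcutaneous fat at the middle of the back in wild-type pigs of an indigenous Chinese breed, Guangdong small-eared (GS), and of the commercial Yorkshire breed (YK). Pigs were 9 d or 80 d old, with 3 libraries in each of the 4 groups YK_9d, GS_9d, YK_80d and GS_80d, and the study asked how the breeds differ at each age. The labels do not say whether the libraries of a group came from separate animals, so the p-values speak of the scatter among these libraries, part of which may be technical. The labels enter adipocyte as the cell type, yet the source is whole adipose tissue. All 10 adipocyte markers examined were present in every library, with summed levels of 12682 to 33944 CPM (counts scaled to a common library total). In bulk tissue, fewer cells of a type and less RNA per cell cannot be told apart.

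Library totals ran from 45435480 to 60993349 units, with about 3.77 units to a sequenced fragment. Some libraries stood apart by transcripts of other tissues. Skeletal muscle markers (4 genes, among them ACTA1 and CKM) summed to 2108 CPM in YK_9d replicate 1, 10165 in GS_9d replicate 3 and 12160 in YK_80d replicate 3, and to at most 82.3 in the other libraries. T and NK cell markers (12 genes) summed to 261, 578 and 907 CPM in the YK_80d replicates 1, 2 and 3, against 147 to 176 in GS_80d, 106 to 230.3 in GS_9d and 73.6 to 78.2 in YK_9d. KLRD1 was at 0 in 8 libraries and the other 11 markers in none. KRT71, a keratin of the hair follicle, was above 0 in YK_9d alone, where it was at 1.12, 7.61 and 13.7 CPM. Beside the comparisons below stand the calls or the fitted differences without these libraries.

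Most interferon response genes were low in all 3 YK_9d libraries, high in all 3 YK_80d libraries and mixed within both GS groups. A score per library was taken as the mean, over the members of a class, of each gene's log2 CPM minus its mean over the 12 libraries. The type I-like score was -1.16, -1.66 and -1.50 in YK_9d and 1.73, 0.64 and 0.96 in YK_80d. In GS_9d it was 2.40, 0.93 and -1.28, so the same group held the highest score of all 12 libraries and one of the lowest. In GS_80d it was -0.74, 0.59 and -0.90. The gamma-like score was highest in YK_80d, at 0.61, 1.24 and 1.80. It was -0.33, -0.65 and -0.92 in YK_9d, 0.38, -0.11 and -1.02 in GS_9d, and -0.59, -0.42 and 0.03 in GS_80d. The libraries that led the classes were thus not the same. GS_9d replicate 1 had the highest type I-like score and ranked only 4 of 12 for the gamma-like score, while YK_80d replicate 3 had the highest gamma-like score and ranked 3 for the type I-like score.

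**Figure D1:**
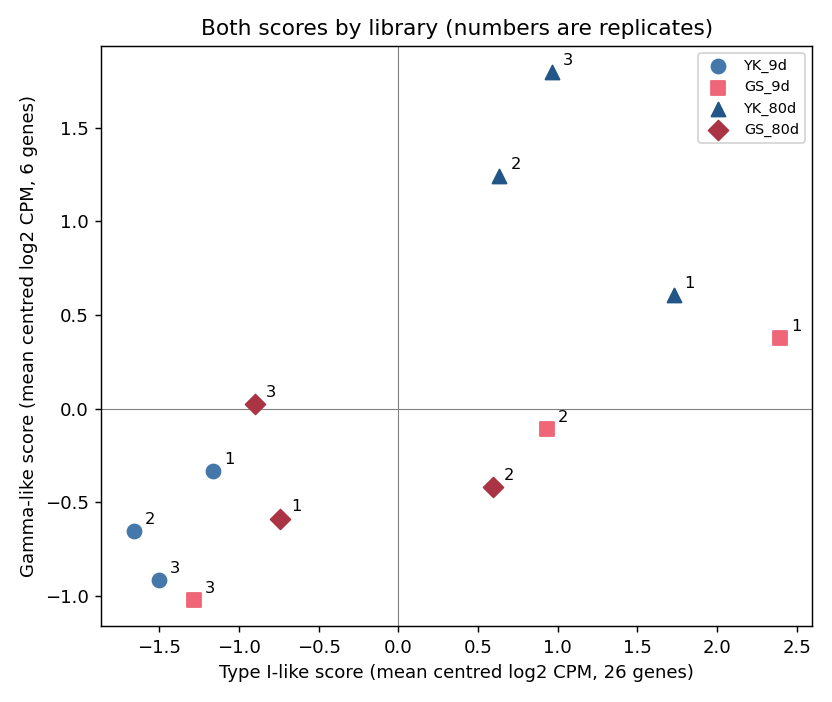
Type I-like score (x axis, 26 genes) against gamma-like score (y axis, 6 genes) for each of the 12 libraries, both as mean centred log2 CPM, with the replicate number beside each point and lines at 0. YK_80d replicates 1 to 3 lie at 0.61 or higher on the gamma-like axis, and the GS_9d libraries spread from -1.28 to 2.40 on the type I-like axis.

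The spread within GS_9d was the widest. The standard deviation (SD) of log2 CPM over its 3 libraries had a median of 1.82 over the type I-like members, 1.34 over the shared and 0.81 over the gamma-like members, against 0.36 over all genes tested. All 26 type I-like members lay above that median of all genes, and 19 lay above the 90th percentile of all genes, which was 1.47. In YK_9d the type I-like members varied about as much as other genes, with a median SD of 0.40 against 0.43. In YK_80d the medians were 0.58 for type I-like and 0.62 for gamma-like members against 0.44 for all genes. In GS_80d the type I-like members again varied more, with a median of 0.73 against 0.26, and 25 of 26 lay above the median of all genes, while the gamma-like median was 0.24.

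The 3 GS_9d libraries were ordered alike by every member. Replicate 1 was above replicate 2 and replicate 2 above replicate 3 for 38 of 38 members, an order that 12.8% of all genes tested showed. The ratio of replicate 1 to replicate 3 ran from 3.18 to 120.5 over the type I-like members, with a median of 10.8, and from 1.23 to 4.98 over the gamma-like members, with a median of 2.97. Replicate 3 lay near YK_9d: its ratio to the YK_9d mean had a median of 0.87 over the 36 members detected in YK_9d, and 11 of them were above 1. GS_9d replicate 1 was the highest of all 12 libraries for 24 of 26 type I-like and 4 of 6 shared members but for 0 of 6 gamma-like members, and for 6.08% of all genes. YK_80d replicate 3 was the highest of all for 6 of 6 gamma-like and 1 of 26 type I-like members, and for 10.4% of all genes.

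Within YK_80d the classes also parted, while in GS_80d the gamma-like members were split evenly between replicates 2 and 3. Among the YK_80d libraries, replicate 1 was highest for 22 of 26 type I-like and 5 of 6 shared members and for 0 of 6 gamma-like members, where 35.5% of all genes had that order. Replicate 3 was highest there for 6 of 6 gamma-like and 3 of 26 type I-like members, against 35.1% of all genes. Replicate 3 also held the most T and NK cell transcripts and replicate 1 the fewest of that group, and the part of those cells in the result was not tested. Among the GS_80d libraries, replicate 2 was highest for 23 of 26 type I-like, 6 of 6 shared and 3 of 6 gamma-like members (32.9% of all genes). Replicate 3 was highest there for the other 3 gamma-like members (33.9% of all genes).

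**Figure D2:**
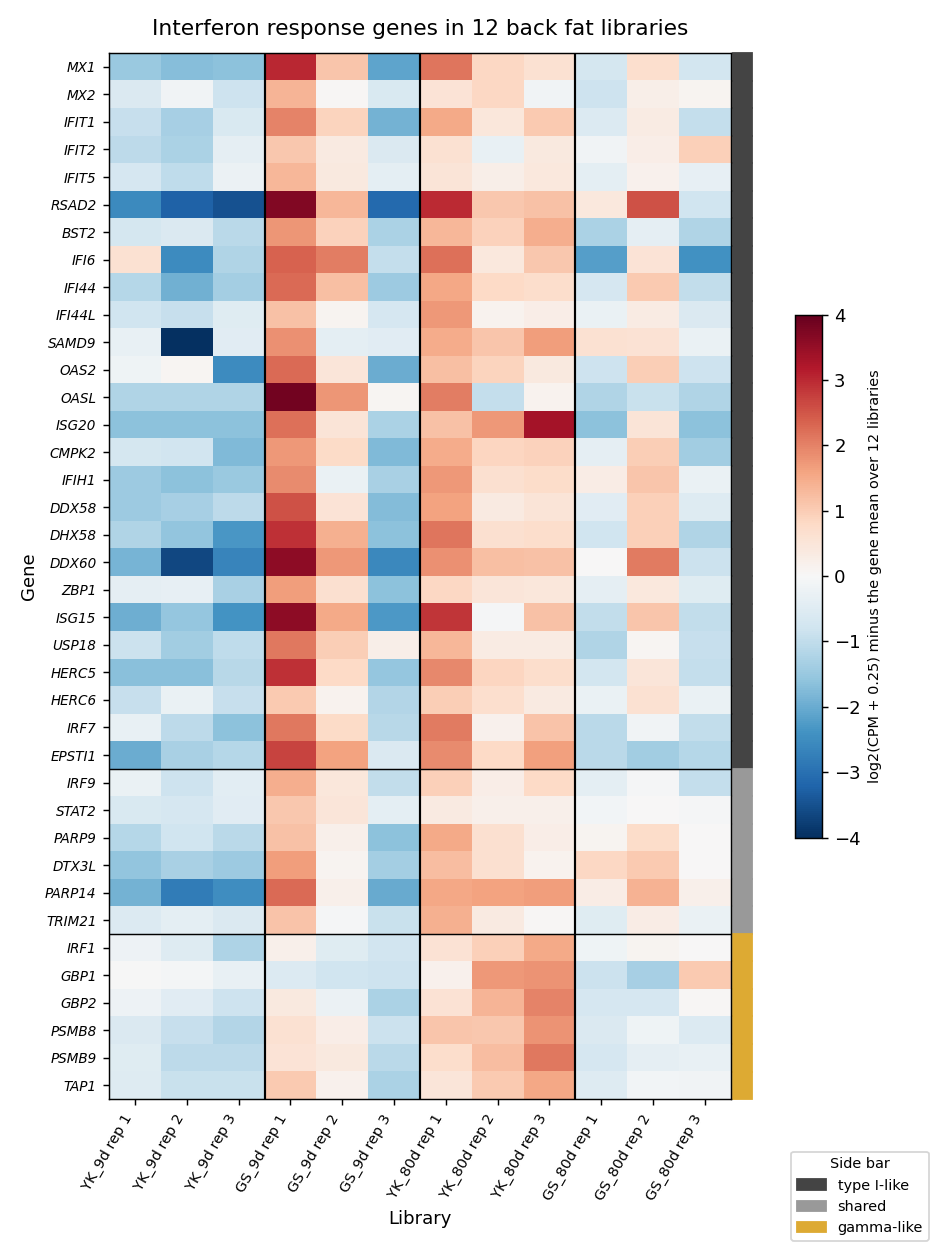
Colour gives log2(CPM + 0.25) of each of the 38 genes (rows) minus its mean over the 12 libraries (columns), with classes in the side bar and lines between groups and classes. The columns of GS_9d replicate 1 and YK_80d replicate 1 are red for most type I-like genes, GS_9d replicate 3 resembles the YK_9d columns, and the gamma-like rows are reddest in YK_80d replicates 2 and 3.

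Among the antiviral effectors, which block viral entry, replication or release, 11 were analysed. IFI6 encodes a small mitochondrial and membrane protein. IFI6 was at 278, 31.5 and 78.8 CPM in YK_9d, 945, 751 and 94.96 in GS_9d, 848, 247 and 386 in YK_80d and 39.3, 265 and 33.9 in GS_80d. Its groups overlapped in all 4 comparisons. BST2 encodes tetherin, which holds budding virus at the cell surface. BST2 was at 41.7, 45.7 and 32.04 CPM in YK_9d, 230.2, 128 and 28.2 in GS_9d, 172, 129.5 and 187 in YK_80d and 27.8, 53.3 and 29.6 in GS_80d. The GS_80d libraries all lay below the YK_80d libraries, and the GS_9d libraries lay on both sides of YK_9d. RSAD2, the enzyme viperin, which makes a chain-ending nucleotide, had the widest range within GS_9d. RSAD2 was at 5.06, 3.06 and 2.53 CPM in YK_9d, 406, 78.2 and 3.37 in GS_9d, 249, 65.9 and 69.6 in YK_80d and 41.9, 181 and 17.7 in GS_80d. GS_9d replicate 3 thus fell within the YK_9d range, while replicate 1 was the highest of all 12 libraries. MX1, a GTPase that traps viral nucleoprotein, was at 500.4, 131 and 13.9 CPM in GS_9d against 21.5, 18.8 and 19.3 in YK_9d. The ratio of GS_9d replicate 1 to replicate 3 for the others was 15.0 for IFIT1, 13.4 for IFI44, 4.86 for SAMD9, 3.91 for MX2, 3.64 for IFI44L, 3.28 for IFIT5 and 3.18 for IFIT2. SAMD9 was at 28.98, 0.584 and 26.4 CPM in YK_9d, with replicate 2 far below the others.

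The enzymes that act on nucleotides or RNA numbered 4. OAS2 makes oligoadenylates on sensing double-stranded RNA. OAS2 was at 88.04, 104 and 17.1 CPM in YK_9d, 481, 140.5 and 25.1 in GS_9d, 231, 184 and 129 in YK_80d and 56.3, 198 and 55.8 in GS_80d. GS_9d replicates 1 and 2 lay above every YK_9d library, and GS_9d replicate 3 lay within the YK_9d range. OASL, a catalytically inactive relative in human, was at 0 in every YK_9d library. OASL was at 0, 0 and 0 CPM in YK_9d, 8.17, 1.72 and 0.359 in GS_9d, 2.17, 0.0505 and 0.393 in YK_80d and 0, 0.0633 and 0 in GS_80d. Set against a floor of 3 fragments over the YK_9d group (0.0695 CPM, covering counting error only), OASL was at least 49.2-fold higher in GS_9d and at least 12.5-fold higher in YK_80d. Both values rest on replicate 1 of the group: without it they were 15.0-fold and 3.19-fold, and YK_80d replicate 2 alone lay under the floor. ISG20, an RNA exonuclease, was also at 0 throughout YK_9d, and at 3.37, 0.862 and 0.0718 CPM in GS_9d and 1.51, 2.35 and 7.55 in YK_80d. By the same floor it was at least 20.6-fold and 54.8-fold higher, or 6.72-fold without GS_9d replicate 1 and 27.8-fold without YK_80d replicate 3. CMPK2, a mitochondrial nucleotide kinase, was at 20.3, 19.6 and 9.58 CPM in YK_9d and 110.1, 56.3 and 9.704 in GS_9d.

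The sensors of viral nucleic acid showed the same order of the GS_9d libraries. DDX58 encodes RIG-I, which detects RNA ends that lack a host cap. DDX58 was at 13.5, 14.9 and 17.9 CPM in YK_9d, 221, 55.1 and 11.2 in GS_9d, 114, 48.4 and 53.4 in YK_80d and 27.2, 72.1 and 26.1 in GS_80d. IFIH1, a sensor of long double-stranded RNA, was at 9.71, 8.44 and 9.504 CPM in YK_9d and 100.5, 22.6 and 10.9 in GS_9d, and these groups did not overlap. The ratio of GS_9d replicate 1 to replicate 3 was 92.1 for DDX60, a helicase, 24.8 for DHX58, a regulator of both sensors, and 10.3 for ZBP1, which binds left-handed nucleic acid. DDX60 was at 1.64, 0.292 and 0.831 CPM in YK_9d and 80.9, 22.2 and 0.879 in GS_9d.

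The ISG15 system attaches a ubiquitin-like protein to other proteins and removes it. ISG15, the modifier, was at 10.3, 13.8 and 7.62 CPM in YK_9d, 492, 117 and 8.13 in GS_9d, 297, 39.3 and 91.5 in YK_80d and 20.3, 89.4 and 20.5 in GS_80d. USP18 removes ISG15 and also restrains the type I receptor. USP18 was at 31.7, 22.3 and 28.8 CPM in YK_9d, 250.4, 114 and 69.2 in GS_9d, 147, 73.9 and 73.9 in YK_80d and 25.3, 61.2 and 30.4 in GS_80d. Every GS_9d library lay above every YK_9d library, and every YK_80d library above every GS_80d library. HERC6, one of a pair of ligases with HERC5, varied less than ISG15 in GS_9d. HERC6 was at 72.8, 113 and 72.2 CPM in YK_9d, 285, 152 and 61.1 in GS_9d, 272, 219 and 176 in YK_80d and 113, 208 and 115 in GS_80d. GS_9d replicate 3 was the lowest of all 12 libraries. HERC5, the main ISG15 ligase in human, was at 173, 38.9 and 7.46 CPM in GS_9d and 6.84, 6.84 and 10.4 in YK_9d. IRF7 drives a second wave of type I interferon. IRF7 was at 17.4, 10.2 and 6.69 CPM in YK_9d, 91.6, 36.6 and 9.69 in GS_9d, 91.2, 23.9 and 46.6 in YK_80d and 9.94, 19.4 and 10.5 in GS_80d. GS_9d replicate 1 and YK_80d replicate 1 were nearly equal and highest.

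EPSTI1, named for epithelial and stromal interaction, was the member that passed the test in all 5 comparisons described below. EPSTI1 was at 2.13, 3.56 and 4.03 CPM in YK_9d, 61.02, 28.9 and 6.04 in GS_9d, 34.9, 16.2 and 29.1 in YK_80d and 4.21, 3.34 and 4.08 in GS_80d. GS_9d and YK_80d lay above both other groups with no overlap, and the ranges of GS_80d and YK_9d overlapped. The means were 3.24 ± 0.994 CPM in YK_9d, 31.98 ± 27.6 in GS_9d, 26.7 ± 9.56 in YK_80d and 3.88 ± 0.468 in GS_80d (SD, n = 3 each).

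**Figure D3:**
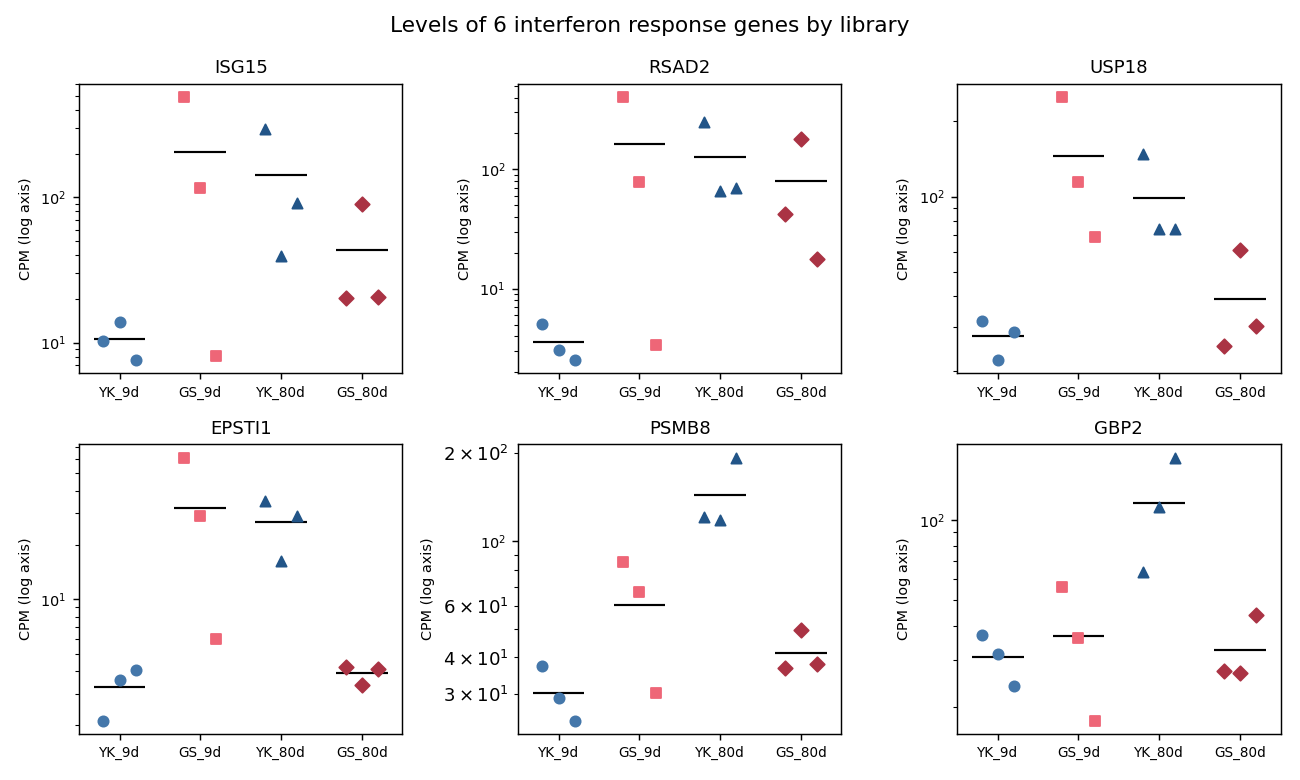
CPM (log axes) of ISG15, RSAD2, USP18, EPSTI1, PSMB8 and GBP2 in each library, with a line at each group's mean of 3 libraries. The GS_9d points of ISG15 and RSAD2 run from the YK_9d range to the highest of all libraries, whereas the YK_80d points of PSMB8 and GBP2 all lie above the GS_80d points.

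The shared members followed the type I-like members with smaller ranges. STAT2 is the partner of IRF9. STAT2 was at 85.1, 81.7 and 96.4 CPM in YK_9d, 275, 183 and 99.5 in GS_9d, 166, 150.3 and 150.1 in YK_80d and 120.0, 131 and 126 in GS_80d. All 3 GS_9d libraries lay above YK_9d, and all YK_80d libraries above GS_80d. IRF9, which gives that complex its DNA contact, ran from 17.9 CPM in GS_9d replicate 3 to 98.7 in GS_9d replicate 1. PARP9 and DTX3L form a ubiquitin ligase pair. PARP9 was at 11.9, 15.2 and 12.4 CPM in YK_9d, 61.03, 30.6 and 8.39 in GS_9d, 76.7, 41.8 and 32.3 in YK_80d and 29.1, 44.9 and 26.9 in GS_80d. PARP14, an ADP-ribosyltransferase, was at 5.03, 2.59 and 3.26 CPM in YK_9d and 56.4, 59.1 and 62.3 in YK_80d, the tightest of the YK_80d groups among the shared members. The ratio of GS_9d replicate 1 to replicate 3 was 20.3 for PARP14, 8.93 for DTX3L, 7.27 for PARP9, 5.502 for IRF9, 4.18 for TRIM21, an antibody receptor of the cytosol, and 2.77 for STAT2. PARP9 and DTX3L are next to each other in the RefSeq order of genes (Sscrofa11.1), as are GBP2 and GBP1, MX2 and MX1, RSAD2 and CMPK2, IFI44 and IFI44L, HERC5 and HERC6, and PSMB8, TAP1 and PSMB9. No source used here says whether the counting used strand, and reads of overlapping neighbours, or of near copies such as the IFIT and GBP genes, may not have been told apart.

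The gamma-like members were highest in YK_80d. IRF1 is the transcription factor that relays the gamma signal. IRF1 was at 40.1, 32.1 and 19.5 CPM in YK_9d, 53.1, 32.6 and 27.03 in GS_9d, 68.3, 89.2 and 131 in YK_80d and 40.5, 49.4 and 46.97 in GS_80d. Every YK_80d library lay above every other library of the series. PSMB8 and PSMB9 are catalytic subunits of the immunoproteasome, which cuts peptides for display on MHC class I. PSMB8 was at 37.3, 29.1 and 24.3 CPM in YK_9d, 84.8, 67.2 and 30.3 in GS_9d, 122, 118 and 193 in YK_80d and 36.8, 49.6 and 38.1 in GS_80d. PSMB9 was at 15.98, 10.8 and 10.9 CPM in YK_9d, 33.1, 30.00 and 10.5 in GS_9d, 36.6, 53.3 and 97.8 in YK_80d and 13.95, 17.6 and 18.5 in GS_80d. The YK_80d libraries were again the highest of the series for both genes. TAP1 is a subunit of the transporter that carries those peptides. TAP1 was at 55.4, 42.6 and 42.6 CPM in YK_9d, 161, 88.4 and 32.4 in GS_9d, 111, 163 and 229 in YK_80d and 54.5, 73.6 and 71.1 in GS_80d. GS_9d replicate 1 reached the YK_80d range. GBP1 and GBP2 are GTPases that coat intracellular pathogens. GBP2 was at 37.04, 31.5 and 23.8 CPM in YK_9d, 56.3, 36.2 and 17.7 in GS_9d, 63.7, 111 and 171 in YK_80d and 27.1, 26.8 and 44.2 in GS_80d. GBP1 was at 224, 215 and 185 CPM in YK_9d, 156, 132 and 127 in GS_9d, 256, 761 and 798 in YK_80d and 124, 90.7 and 472 in GS_80d. GBP1 was the sole member for which every GS_9d library lay below every YK_9d library.

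At 9 d, most members had higher fitted levels in GS, and 2 of 38 were called higher. The fit shares the spread of each gene over all 4 groups. Type I-like members varied more in GS_9d (median SD of log2 CPM 1.82) than in YK_9d (0.40). The p-values thus do not measure the spread within GS_9d alone. EPSTI1 was higher in GS by 3.30 ± 0.65 (log2 difference ± SE, adjusted p = 0.0449) and USP18 by 2.39 ± 0.49 (adjusted p = 0.0450), by edgeR's quasi-likelihood test with Benjamini-Hochberg adjustment over all genes tested. None fell, and 0.655% of all genes were called higher. OASL followed, with an adjusted p of 0.0763. The log2 difference was positive for 37 of 38 members (50.5% of all genes), and 29 had an unadjusted p under 0.05 (14.4% of all genes). Groups did not overlap for 6 members that were higher (8.93% of all genes), namely EPSTI1, USP18, OASL, ISG20, IFIH1 and STAT2, and for 1 that was lower, GBP1 (9.54% of all genes). The median log2 difference was 2.24 over the type I-like members, 1.22 over the shared and 0.63 over the gamma-like members, against 0.01 over all genes tested.

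The count at 9 d turned on single libraries. It was 13 without GS_9d replicate 3 (0.503% of all genes called higher), and 0 without any 1 of the other 5 libraries compared, while the median over the type I-like members ran from 1.06 without GS_9d replicate 1 to 2.71 without GS_9d replicate 3. DESeq2 called 20 members higher (3.12% of all genes) and limma-voom called 0 (0.551%). GS_9d replicate 3 is one of the libraries with muscle transcripts; without all 3 of these the count stayed at 2, now EPSTI1 and PARP14, and the type I-like median was 2.88. Dropping YK_9d replicates 2 and 3, the libraries richest in KRT71, the count was 0 and the median 2.06, with 1 YK_9d library left and assumed to vary like the others. Of the 11 T and NK cell markers tested, 0 were called by edgeR and by limma-voom, 5 had an unadjusted p under 0.05 and DESeq2 called 2 higher. Their log2 difference was positive for 10 of 11, with a median of 1.18, and every GS_9d library lay above every YK_9d library for 7. Their part in the result was not tested.

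**Figure D4:**
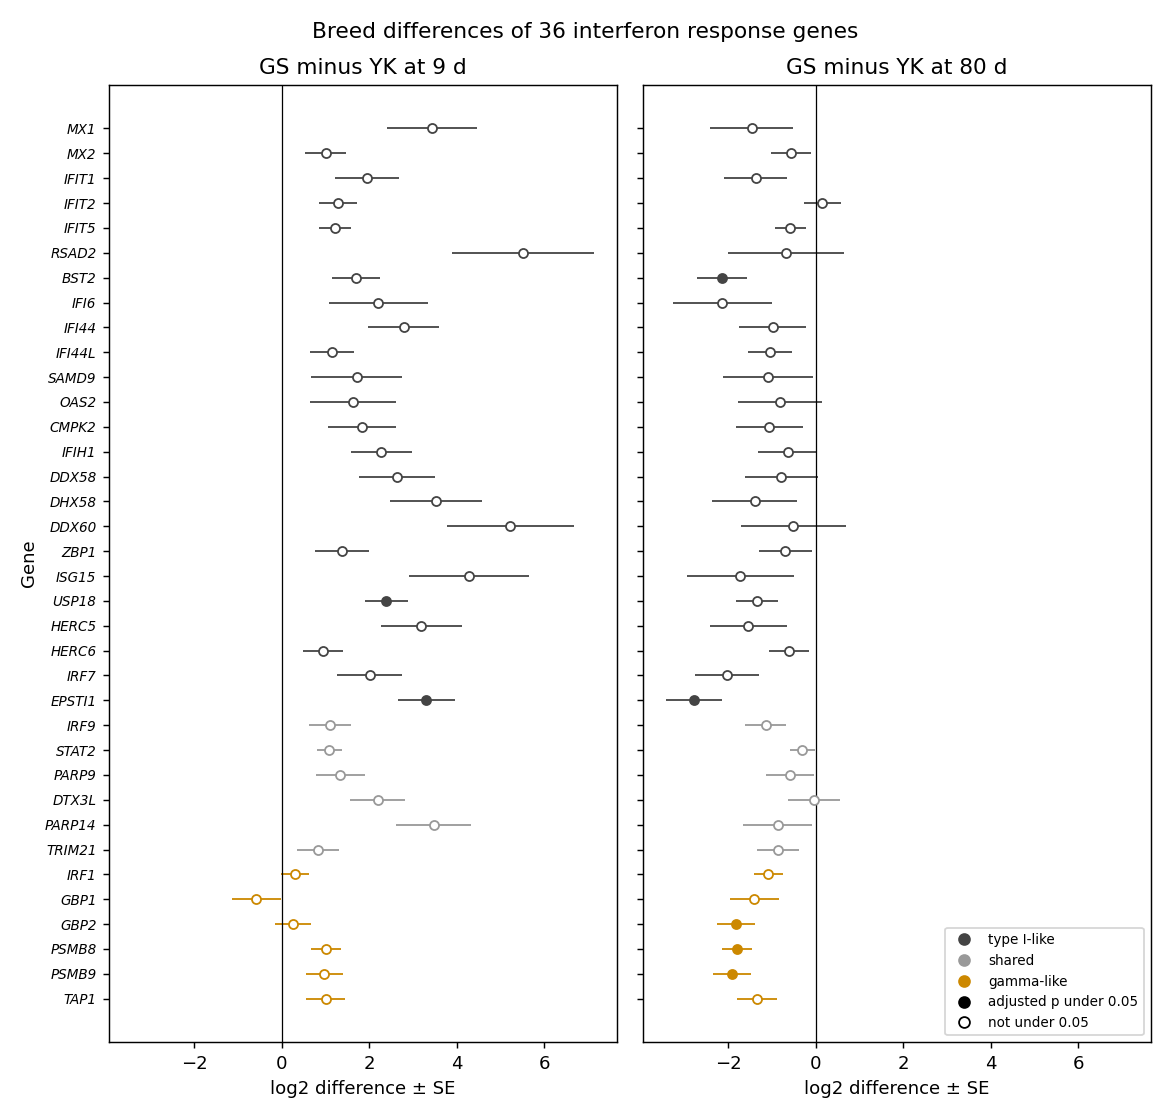
Log2 difference between breeds (GS minus YK) with its SE at 9 d (left) and 80 d (right) for 36 members, filled where the adjusted p was under 0.05. OASL and ISG20, at 0 in all YK_9d libraries, are left out. At 9 d every point but GBP1 lies right of 0, and at 80 d every point but IFIT2 lies left of it.

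At 80 d the direction was the other way, and the gamma-like members made up most of the calls. Of 38 members 5 fell in GS relative to YK and none rose, where 2.95% of all genes were called lower. PSMB8 was lower in GS by 1.80 ± 0.35 on the log2 scale (SE, adjusted p = 0.0127), with group means of 41.5 ± 7.01 CPM in GS_80d and 144 ± 42.5 in YK_80d (SD, n = 3, edgeR). The log2 difference was -1.91 ± 0.43 for PSMB9 (adjusted p = 0.0258), -1.82 ± 0.43 for GBP2 (adjusted p = 0.0308), -2.78 ± 0.64 for EPSTI1 (adjusted p = 0.0291) and -2.14 ± 0.57 for BST2 (adjusted p = 0.0476), all by edgeR's quasi-likelihood test. IRF1 (-1.08 ± 0.33, adjusted p = 0.0718), TAP1 (-1.34 ± 0.45, adjusted p = 0.0960) and GBP1 (-1.40 ± 0.56, adjusted p = 0.155) did not pass. An unadjusted p under 0.05 was found for 12 members and 23.8% of all genes. The log2 difference was negative for 37 of 38 members (IFIT2 was the exception) and positive for 48.6% of all genes. Every GS_80d library lay below every YK_80d library for 18 members, 5 of them gamma-like, 3 shared and 10 type I-like, as for 14.4% of all genes. The median log2 difference was -1.60 over the gamma-like, -1.07 over the type I-like and -0.72 over the shared members, against -0.02 over all genes.

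The calls at 80 d also moved with the libraries. Without the 3 libraries with muscle transcripts, 4 members were called, and GBP2 was not (-1.42, adjusted p = 0.0654, edgeR). The count of members called lower was 0 when GS_80d replicate 1 was dropped, 1 when GS_80d replicate 2, GS_80d replicate 3 or YK_80d replicate 3 was dropped, and 3 when YK_80d replicate 1 or YK_80d replicate 2 was dropped. The 1 member was GBP1 when GS_80d replicate 3 was dropped and PSMB8 in the other fits with 1 call. PSMB8 kept its call in 4 of these 6 fits, with an adjusted p of 0.0670 when GS_80d replicate 1 and 0.0565 when GS_80d replicate 3 was dropped (edgeR). DESeq2 called 11 members lower (8.33% of all genes) and limma-voom 3 (2.68%), namely PSMB8, PSMB9 and GBP2. Markers of T and NK cells moved with these genes: 5 of the 11 tested were lower in GS_80d, among them GNLY, a granule protein of killer cells (-3.82 ± 0.60, adjusted p = 0.00614, edgeR), and CCL5, a chemokine (-3.37 ± 0.76, adjusted p = 0.0293). LCK, a kinase of the T cell receptor, and the pore protein PRF1 were the next by adjusted p, at -2.52 ± 0.60 (adjusted p = 0.0304) and -2.63 ± 0.66 (adjusted p = 0.0366), and NKG7 was the last of the 5. Of the 11, limma-voom called 1 lower (2.68% of all genes) and DESeq2 8 (8.33%). The YK_80d and GS_80d ranges overlapped for 9, and every GS_80d library lay below every YK_80d library for 2 (14.4% of all genes). The macrophage markers TYROBP (-1.87 ± 0.32, adjusted p = 0.00718) and AIF1 (-1.95 ± 0.41, adjusted p = 0.0194) were lower as well, 2 of 12 tested (edgeR). Of all genes 2.95% were called lower. The part of these cells in the result was not tested. YK_80d replicates 2 and 3, where the T and NK cell markers were highest, also had the highest gamma-like scores, 1.24 and 1.80 against 0.61. A gamma-like difference nearer to 0 without them was thus set by that choice and cannot bear on these cells. Without them the gamma-like median was -0.85 and the type I-like median -1.72, with 1 YK_80d library left. In that fit the log2 difference was -1.55 for PSMB8, -3.17 for EPSTI1 and -2.22 for BST2, and nearer to 0 for PSMB9 (-1.13) and GBP2 (-0.96).

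In YK, every member had a higher fitted level at 80 d than at 9 d. Of 38 members 4 rose and none fell, where 0.810% of all genes were called higher and 50.0% had a positive difference. They were PSMB8 (2.26 ± 0.35, adjusted p = 0.0193), PSMB9 (2.32 ± 0.44, adjusted p = 0.0338), IRF1 (1.66 ± 0.33, adjusted p = 0.0374) and EPSTI1 (3.04 ± 0.65, adjusted p = 0.0483), as log2 differences ± SE from edgeR. The YK_80d libraries all lay above the YK_9d libraries for 37 members, IFI6 being the exception, where 7.77% of all genes were arranged so. An unadjusted p under 0.05 was found for 34 members and for 13.5% of all genes. The median log2 difference was 2.23 over the type I-like, 1.59 over the shared and 1.87 over the gamma-like members, and 0 over all genes. DESeq2 called 27 members higher (3.52% of all genes) and limma-voom 2, PSMB8 and IRF1 (0.272%). The count was 4 without YK_80d replicate 1, 1 without YK_80d replicate 2, YK_80d replicate 3 or YK_9d replicate 1, and 0 without YK_9d replicate 2, YK_9d replicate 3 or both. Without the 3 libraries with muscle transcripts it was 4 again, but PARP14 passed and IRF1 did not (1.61, adjusted p = 0.0837, edgeR). Of the T and NK cell markers, 8 of 11 also rose, CD3E by 4.46 ± 0.72 and CD247 by 1.82 ± 0.31 (both subunits of the T cell receptor complex, adjusted p = 0.0244 and 0.0244, edgeR), LCK by 3.74 ± 0.63 (adjusted p = 0.0244) and GNLY by 3.31 ± 0.59 (adjusted p = 0.0270). Of the 11, limma-voom called 2 higher (0.272% of all genes) and DESeq2 9 (3.52%). For 9 of these markers every YK_80d library lay above every YK_9d library (7.77% of all genes). Their part in the result was not tested. The fit without YK_80d replicates 2 and 3 cannot bear on it, since the 1 YK_80d library left had the lowest gamma-like score of its group. There the log2 difference was 2.01 for PSMB8, 3.43 for EPSTI1, 1.54 for PSMB9 and 1.16 for IRF1.

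In GS, most members had lower fitted levels at 80 d than at 9 d, but the libraries of the ages overlapped for 35 of 38. GS_9d replicate 3 had a lower type I-like score (-1.28) than every GS_80d library (-0.74, 0.59 and -0.90). EPSTI1 fell by 3.04 ± 0.65 on the log2 scale (adjusted p = 0.0339, edgeR), none rose, and 1.27% of all genes were called lower. USP18 (-1.89 ± 0.48, adjusted p = 0.0613) and OASL (adjusted p = 0.0829) came next and did not pass. EPSTI1, USP18 and OASL were also the only 3 of 38 members whose GS_80d libraries all lay below the GS_9d libraries. That is a smaller share than the 16.5% of all genes. The log2 difference was negative for 34 of 38 members (positive for 49.4% of all genes), and its median was -1.27 over the type I-like, -0.36 over the shared and -0.33 over the gamma-like members. GBP1 had the largest positive value, 0.72 ± 0.55 (adjusted p = 0.505). EPSTI1 kept its call without GS_9d replicate 3, where BST2 also passed, and lost it without any 1 of the other 5 libraries. These 2 also passed without the 3 libraries with muscle transcripts. DESeq2 called 4 members lower (5.08% of all genes) and limma-voom 0 (1.37%). By edgeR 6 of 38 members had an unadjusted p under 0.05, a smaller share than the 20.0% of all genes.

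The breed by age interaction asks whether the breed difference at 80 d differs from that at 9 d. It was negative for all 38 members (positive for 50.2% of all genes) and passed for 1, EPSTI1, at -6.09 ± 0.91 (log2 ± SE, adjusted p = 0.0455, edgeR's quasi-likelihood test), where 0.0454% of all genes, 7 in number, were called lower. PSMB8 (-2.81 ± 0.49, adjusted p = 0.0791) and USP18 (-3.73 ± 0.68, adjusted p = 0.106) followed. An unadjusted p under 0.05 was found for 34 members and 11.0% of all genes. The median was -3.74 over the type I-like, -2.07 over the shared and -2.21 over the gamma-like members. The 4 comparisons and the interaction share libraries, so their directions are not separate pieces of evidence. Without GS_9d replicate 3 the interaction passed for 12 members (0.258% of all genes called lower), without YK_80d replicate 1 for 3 (EPSTI1, PSMB8 and PSMB9), and without any 1 of the other 10 libraries for 0. It passed for 4 without the 3 libraries with muscle transcripts (BST2, EPSTI1, PSMB8 and PSMB9) and for 0 without YK_80d replicates 2 and 3 or without YK_9d replicates 2 and 3. Among the markers of other cells GNLY passed as well, at -5.45 ± 0.81 (adjusted p = 0.0455, edgeR). DESeq2 called 24 (1.66% of all genes) and limma-voom 0 (0.0194%).

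Of the interferon genes themselves, IFNG was above 1 CPM in every YK_80d library and below it in all others. IFNG was at 0, 0 and 0 CPM in YK_9d, 0, 0.0766 and 0 in GS_9d, 1.77, 3.21 and 6.06 in YK_80d and 0.145, 0.491 and 0.0672 in GS_80d. Against the floor of 3 fragments over YK_9d it was at least 53.0-fold higher in YK_80d (adjusted p = 0.0345, edgeR). IFNB1, IFNE and IFNK had 0 counts in all 12 libraries. Rows named IFN-ALPHA-15 and IFN-DELTA-1, picked after the symbols were seen, were above 0 in 12 and 11 libraries, and IFNG in 7. Their highest levels were 3.06 and 3.76 CPM, against 6.06 for IFNG. Fragments over all libraries came to about 195.5 and 189.9 for these rows and 162.9 for IFNG. Of the 4 cytokine genes tested, IL6 rose with age in both breeds, by 4.75 ± 0.95 in YK (adjusted p = 0.0376) and 4.54 ± 0.95 in GS (adjusted p = 0.0321, edgeR). IL15, which sustains NK and memory T cells, was lower in GS_80d than in YK_80d, with a log2 difference of -1.41 ± 0.31 (adjusted p = 0.0242, edgeR).

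No receptor chain or kinase passed the test. Of 10 genes tested, 0 were called by edgeR or limma-voom in any of the 5 comparisons, with 1 to 3 at an unadjusted p under 0.05. DESeq2 called 2 higher at 9 d, 1 higher with age in YK and 1 lower in the interaction. The means in YK_9d, GS_9d, YK_80d and GS_80d were 29.7 ± 3.93, 43.5 ± 7.76, 27.7 ± 8.07 and 45.01 ± 5.63 CPM for IFNAR1 (SD, n = 3). In the same order they were 64.3 ± 5.29, 73.2 ± 8.44, 53.5 ± 10.7 and 51.7 ± 4.21 CPM for IFNAR2. For IFNGR1 they were 158 ± 24.7, 144 ± 19.1, 135 ± 38.8 and 135 ± 6.404 CPM, and for IFNGR2 76.6 ± 15.3, 135 ± 16.9, 78.2 ± 22.4 and 104 ± 0.461 CPM. IFNAR1 and IFNGR2 were higher in every GS library than in every YK library of the same age, though neither passed the test (lowest adjusted p 0.0953 and 0.112, edgeR).

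Among 12 negative regulators, SOCS3, an inhibitor of cytokine receptors, was lower in GS_80d than in YK_80d (-2.89 ± 0.65, adjusted p = 0.0286, edgeR), at 22.1, 61.4 and 12.9 CPM against 328, 219 and 167. PTPN11, a phosphatase, was higher in GS_80d, by 0.91 ± 0.18 against YK_80d (adjusted p = 0.0143) and by 0.89 ± 0.18 against GS_9d (adjusted p = 0.0241). SOCS1, the inhibitor that interferon gamma induces, was at 5.77, 3.15 and 7.91 CPM in YK_80d and 1.78, 3.500 and 0.974 in GS_80d (-1.43 ± 0.52, adjusted p = 0.123, edgeR). Of 15 genes of interferon induction, from receptors of nucleic acid to adaptors, edgeR and limma-voom called 0 in each comparison, with 1 to 5 at an unadjusted p under 0.05. DESeq2 called 1 of them higher at 80 d and 1 higher with age in YK.

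Other genes known to be induced by interferon were mostly higher in GS at 9 d and lower at 80 d by the sign of the fitted difference. Of 18 further type I-induced genes, 18 had a positive difference at 9 d (50.5% of all genes). Among them edgeR and limma-voom called 0, 9 had an unadjusted p under 0.05 (14.4% of all genes) and DESeq2 called 4 higher (3.12%). Every GS_9d library lay above every YK_9d library for 2 of the 18 (8.93% of all genes). At 80 d 17 of 18 were negative, where 48.6% of all genes were positive, and 2 fell, where 2.95% of all genes were called lower. These were LAP3, a peptidase (-1.02 ± 0.24, adjusted p = 0.0294), and IFI35 (-1.43 ± 0.39, adjusted p = 0.0479, edgeR). Of 14 further gamma-induced genes, 14 were positive at 9 d with 0 called by edgeR or limma-voom, 6 at an unadjusted p under 0.05 and 2 called by DESeq2. The GS_9d libraries all lay above the YK_9d libraries for 2 of the 14. The shares of all genes at 9 d are those just given. At 80 d 3 of the 14 fell: CD74, the invariant chain of MHC class II (-1.19 ± 0.25, adjusted p = 0.0182), PSMB10, the remaining immunoproteasome subunit (-1.30 ± 0.30, adjusted p = 0.0275), and PSME2, a proteasome activator (-1.29 ± 0.32, adjusted p = 0.0357, edgeR). Every GS_80d library lay below every YK_80d library for 9 of the 18 and 8 of the 14 genes, as for 14.4% of all genes. With age in YK, PSME2 (1.66 ± 0.32, adjusted p = 0.0345) and the peptide trimmer ERAP1 (1.60 ± 0.32, adjusted p = 0.0372, edgeR) rose, where 0.810% of all genes were called higher.

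CXCL9 and CXCL10 attract activated T cells. CXCL9, a target mainly of interferon gamma, was at 1.62, 169 and 274 CPM in YK_80d, so replicate 1 lay below every GS_80d library (9.27, 12.2 and 32.9). CXCL10, a target of both interferon types, was at 14.5, 52.1 and 284 CPM in YK_80d and 82.9, 22.3 and 1.44 in GS_9d, against 0.428, 0.2502 and 0.162 in YK_9d. IFNG and the summed level of the T and NK cell markers were lowest in YK_80d replicate 1 and highest in YK_80d replicate 3, though single markers such as CD247, GNLY and CD3E had another order. The plasmacytoid dendritic cell markers TCF4, SPIB and IRF8 summed to 103.8, 115.0 and 71.0 CPM in YK_80d, 105.7 to 139 in GS_80d, 65.9 to 114.0 in GS_9d and 93.5 to 142 in YK_9d. TCF4 made up most of these sums, and IRF8 alone was at 7.22, 11.1 and 23.7 CPM in YK_80d.

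**Figure D5:**
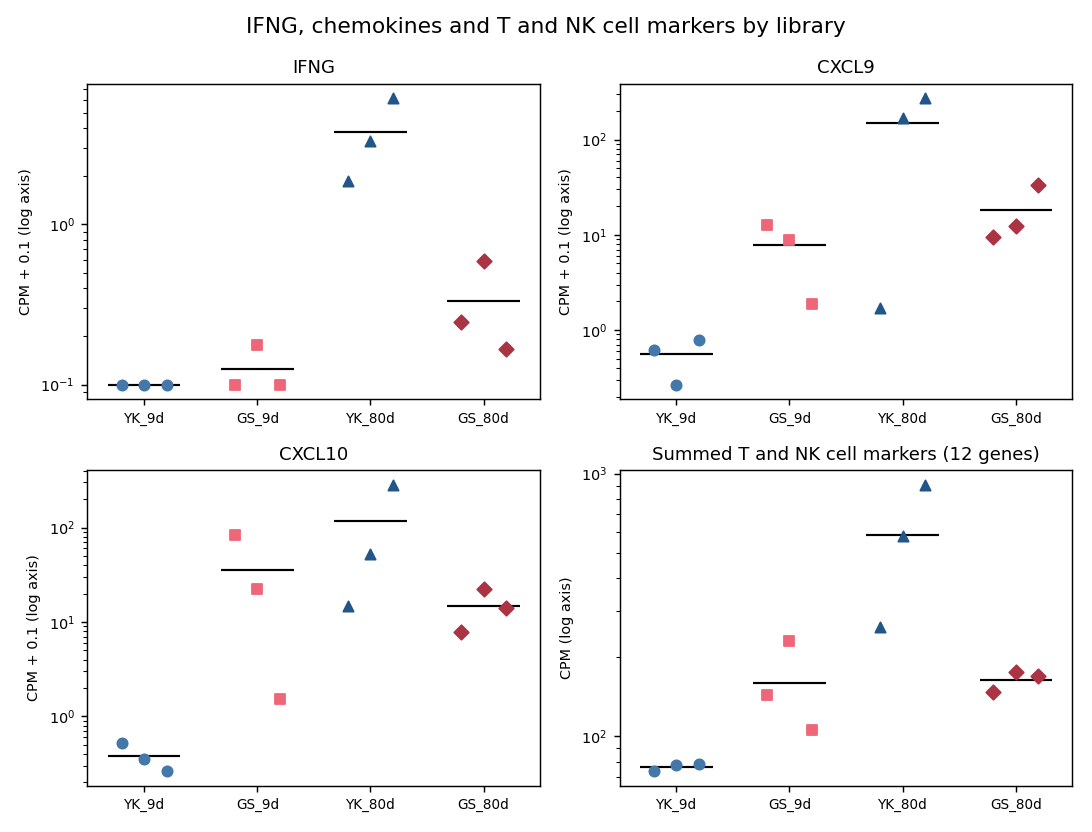
CPM + 0.1 of IFNG, CXCL9 and CXCL10 and the summed CPM of 12 T and NK cell markers (log axes) in each library, with a line at each group's mean of 3 libraries. YK_80d replicates 2 and 3 are high in all 4 panels, whereas YK_80d replicate 1 is low for CXCL9 and GS_9d replicate 1 is high for CXCL10.

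Of the 10 genes outside the members whose log2 CPM followed the type I-like score most closely over the 12 libraries, those reported here were UBE2L6, EIF2AK2, FBXO39, PML, ZNFX1, LGALS3BP, PLSCR1, SP110 and NUB1, with Pearson coefficients from 0.961 down to 0.904. UBE2L6 is the conjugating enzyme of ISG15, and EIF2AK2 the kinase PKR, which halts translation on double-stranded RNA. Of the 10, 6 were among the fixed lists. UBE2L6 was at 29.7, 31.9 and 19.7 CPM in YK_9d, 309, 109 and 25.8 in GS_9d, 193, 84.96 and 186 in YK_80d and 22.7, 72.5 and 31.4 in GS_80d. FBXO39 lies 1 protein-coding gene away from XAF1, a member with no row, in the RefSeq order. The gamma-like score was followed most closely by PSMB10, ACSL5, MYO1G, TAPBP and JAK3, with coefficients from 0.974 to 0.941, and 2 of the 5 were among the fixed lists. The 12 points share their libraries and depth with the score, so these coefficients are descriptions and carry no test.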

How the data were processed

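RNA from pig back fat was sequenced from 12 libraries in 4 groups of 3, grouped by the breed and age in the labels. The authors deposited 1 table of estimated counts per pig Ensembl gene, with 1 column per library, per the file headers. They were taken as not normalized, since totals differ between libraries, and are whole numbers that pile up at multiples of about 3.77 units per fragment. No source used here gives the aligner, counter or annotation. Because the mouse build mm10 stands in the submitters' processing notes while the IDs are pig, no coordinates are given. Symbols came from a supplied name table and neighbours from the RefSeq gene order of Sscrofa11.1.

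Genes were filtered with edgeR's filterByExpr, which left 15425, scaled by TMM (factors 0.888 to 1.10) and fitted with a robust quasi-likelihood model over all 12 libraries, with 8 residual degrees of freedom (R 4.3.3, edgeR 4.0.16). Calls used a Benjamini-Hochberg adjusted p under 0.05 over all genes tested. CPM are per TMM-scaled library total. Floors were set at 3 fragments over the group. The procedure was tested on simulated data. Alternatives were DESeq2 1.42.0, limma-voom (limma 3.58.1), another scaling, no filter, a replicate block, the compared libraries alone, values divided by the fragment unit, and fits that left out libraries.

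The members and all gene lists were chosen with earlier results of these data known. Values per library are given for members called in any comparison, for the 3 lowest adjusted p-values of each comparison and for the member with the highest mean in each role, and for some others chosen after their values were seen. In other lists every called gene, up to 4 per list and comparison, and the main receptors and SOCS1 were named. Some genes that this rule names are not reported here.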

Additional observations from a re-analysis of the deposited data

Results flagged for a closer look

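EPSTI1 differed between ages in its breed difference. The breed difference at 80 d minus that at 9 d was -6.09 ± 0.91 on the log2 scale (SE, adjusted p = 0.0455, edgeR's quasi-likelihood test over all genes). Every GS value exceeded every YK value at 9 d, and the reverse held at 80 d. The call was lost in 10 of 12 fits that left out 1 library, where the difference ran from -6.57 to -5.21, and limma-voom did not make it.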

How the results depend on the processing

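In 345 recomputations of the results, no class median and no single-gene difference reversed, while counts of members could not reverse by construction. Of the recomputations, 169 stayed the same, 112 kept direction and lost the call, and 64 moved. Only single-gene results could lose a call, and for them the same meant direction and call kept. For counts it meant a similar number, and for class medians a shift smaller than the SD of the library scores. That SD is wide where the libraries of a group disagree, as for the type I-like score in GS_9d (1.85). A type I-like median of 1.06 against 2.24 at 9 d thus counted as the same. The numbers of members called at 9 d, at 80 d, with age in YK, with age in GS and in the interaction were 2, 5, 4, 1 and 1. In the same order they were 20, 11, 27, 4 and 24 by DESeq2 and 0, 3, 2, 0 and 0 by limma-voom. With no filter on low counts, the 9 d count was 1 and the interaction count 0. With only the compared libraries fitted, the 9 d count was 0 and the count with age in YK 10. Shares of all genes called stand above for the edgeR fit of all 12 libraries, DESeq2, limma-voom and, in part, the fit without GS_9d replicate 3. Counts under the other fits, here and above, cannot be set against all genes. Without the libraries with muscle transcripts, the count with age in GS was 2 and the interaction count 4, GBP2 lost its call at 80 d (count 4), and with age in YK (count 4) PARP14 was called and IRF1 was not. Without those with most skin transcripts, the counts at 9 d, with age in YK and in the interaction were 0. Without those with most T cell transcripts, the counts at 80 d, with age in YK and in the interaction were 0, and the gamma-like median at 80 d was -0.85. The cause was not tested.

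Leaving out 1 library at a time gave 0 to 13 members at 9 d, 0 to 3 at 80 d, 0 to 4 with age in YK, 0 to 2 with age in GS and 0 to 12 in the interaction. The type I-like median ran from 1.06 to 2.71 at 9 d and from -1.88 to -0.70 at 80 d, where -1.88 came without GS_80d replicate 2. The gamma-like median ran from 0.16 to 0.95 at 9 d and from -1.85 to -1.30 at 80 d. BST2 lost its call at 80 d, and EPSTI1 its call with age in YK, in 6 of 6 such fits.

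Libraries with the same replicate number did not deviate together (correlations from -0.22 to 0.24), so the numbers are not taken as a pairing. With the replicate block the counts were 0 at 9 d, 2 at 80 d, 1 with age in YK, 0 with age in GS and 0 in the interaction.

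Groups of 3 limit every test here. OASL and ISG20 rest on few fragments, and 0 in YK_9d bounds their levels only to the floor; leaving out 1 library from these folds was added after seeing the data.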

Other observations

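Markers of adipocytes, macrophages and endothelium also differed, by edgeR's quasi-likelihood test with adjustment over all genes. Of 10 adipocyte markers, 1 was higher in GS at 9 d (0.655% of all genes) and 4 at 80 d. The share of all genes called higher in GS at 80 d is not given here. CIDEC, a lipid droplet protein, was higher by 1.81 ± 0.38 on the log2 scale at 9 d (adjusted p = 0.0449) and by 1.89 ± 0.38 at 80 d (adjusted p = 0.0151). At 80 d the adipogenic factor CEBPA was higher by 1.36 ± 0.30 (adjusted p = 0.0244), the lipid droplet coat PLIN1 by 1.31 ± 0.32 (adjusted p = 0.0346) and the lipase LPL by 1.41 ± 0.36 (adjusted p = 0.0385).

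Of 12 macrophage markers, 3 fell with age in GS, where 1.27% of all genes were called lower. They were the scavenger receptor CD163 (-1.85 ± 0.35, adjusted p = 0.0201) and the complement genes C1QA (-1.94 ± 0.43, adjusted p = 0.0381) and C1QC (-1.80 ± 0.41, adjusted p = 0.0399). With age in YK, CD163 (-2.09 ± 0.36, adjusted p = 0.0244) and the mannose receptor MRC1 (-2.52 ± 0.48, adjusted p = 0.0345) fell, while the costimulator CD86 rose (2.45 ± 0.48, adjusted p = 0.0345). In that comparison 0.810% of all genes were called higher, and the share called lower is not given here. TEK, an endothelial receptor, rose with age in YK by 1.76 ± 0.25 (adjusted p = 0.00960, edgeR).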
